A study of Arabidopsis thaliana with 4 samples.

Results

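BT2 (At3g48360), KMD1 (At1g80440), KMD3 (At2g44130) and TZF1 (At2g25900) are Arabidopsis genes that are known as induced by sugar starvation and darkness, and the transcript level of each was read from 1 probe set of the Affymetrix ATH1 array. These are 4 probe sets out of 22746, and they were chosen because they are lower in the eif3h mutant on these same arrays. The annotation of the array used here names none of them. They are named only through the study's own lists of changed genes, which hold genes changed in transcript level or in translation. Translation was judged from other arrays, of polysomal and non-polysomal RNA. As the 4 genes were so chosen and named, their difference between the genotypes is given as a description, with no test attached. BT2 lies on chromosome 3, KMD1 on chromosome 1 and KMD3 and TZF1 on chromosome 2. Probe, promoter and protein sequences were not used here.

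Total RNA was taken at an age of 10 days from the seedlings' aerial parts and hybridized to 2 arrays for the eif3h-1 mutant and 2 for its wild type. The eif3h-1 allele carries a T-DNA insertion in the gene for the h subunit of translation initiation factor 3 and leaves a protein that lacks its carboxyl terminus, and it is the only allele measured. All seedlings grew on sucrose-containing agar under continuous light, so no sample was starved or kept in the dark, and the inducibility of the 4 genes is background that these arrays cannot check. Each of the 2 experimental repeats holds 1 array of each genotype, from RNA prepared on a separate day, and both arrays of a repeat were scanned on 1 day with 1 scanner, which differ between the repeats.

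The values are MAS 5.0 signals, a linear intensity that was scaled to the same trimmed mean on every array. Log2 signals of the brightest 38.8% of the probe sets (mean signal of at least 327) were fitted with limma, the repeat being a block, and a call means a Benjamini-Hochberg adjusted p under 0.05 over all of them. All 4 genes are in this tested group, though a gene can enter it through a high signal in 1 genotype alone. KMD3 did so through the wild type, as both its mutant signals (292 and 309) lay below 327. With 4 arrays the fit leaves 1 residual degree of freedom, and an exact permutation test of 2 arrays against 2 cannot give a two-sided p below 0.333. The median log2 fold change of eif3h against the wild type was 0.03 over all tested probe sets. The transcript of the mutated gene, TIF3H1 (At1g10840), had signals of 245 and 432 in the mutant against 1363 and 1020.5 in the wild type (log2 ratio -1.86 ± 0.87, SD, n = 2 repeats), and so was lower on both mutant arrays. Of 5 shoot markers, RCA, the activase of Rubisco, was the one with a named probe set, with signals of 28004 and 50782 in the mutant and 30586 and 58204 in the wild type. Of 6 root hair and root uptake markers, 2 were named, EXPA7 and EXPA18, and their summed signal was 173 and 345.0 in the mutant and 151 and 259 in the wild type. Neither is at 0, and neither is among the tested probe sets.

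When plant cells run short of sugar, as in a long night, the protein kinase SnRK1 becomes active and changes the transcript levels of many genes. Genes for the breakdown of starch, amino acids and other reserves then rise, and genes for growth and storage fall. The group is known as the DIN (dark inducible) genes and their relatives, and sucrose in the medium keeps them low. The 4 genes described here encode regulators rather than metabolic enzymes. BT2 has a BTB domain and a TAZ zinc finger and serves as a substrate adaptor of ubiquitin ligases built on CUL3, and its transcript is known to respond to sugar, nitrate and the time of day. KMD1 and KMD3 (KISS ME DEADLY) are F-box proteins with Kelch repeats that mark type-B response regulators of the cytokinin pathway and phenylalanine ammonia-lyase for degradation. TZF1 is a protein with tandem CCCH zinc fingers that binds RNA and is found in processing bodies and stress granules.

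In both repeats each of the 4 transcripts was lower in eif3h than in wild-type seedlings, by 2.59-fold to 5.88-fold. All 4 were at least 2-fold lower in both repeats, as were 2.46% of the tested probe sets, and nothing is read from this count because the genes were chosen on it. In bulk RNA, fewer cells that express a gene and less transcript per cell cannot be told apart.

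BT2 had a signal of 280.3 in the mutant against 899 in the wild type in repeat 1, and of 1361 against 7999.9 in repeat 2. The mutant was thus 3.21-fold lower in repeat 1 and 5.88-fold lower in repeat 2 (mean log2 ratio -2.12 ± 0.62, SD, n = 2 repeats). The genotypes overlap for BT2 if the repeats are ignored, as the mutant of repeat 2 lay above the wild type of repeat 1. The size of the difference therefore depended on which arrays were set against each other. With 1 array left out the fit had no replicate block, so arrays of different repeats were compared. The log2 fold change was then -0.54 without the wild type of repeat 2 and -0.98 without the mutant of repeat 1. It was -3.26 without the mutant of repeat 2 and -3.70 without the wild type of repeat 1.

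KMD1 had a signal of 422 in the mutant against 1537 in the wild type in repeat 1, and of 885 against 3029.7 in repeat 2. The mutant was lower by 3.64-fold and 3.42-fold (mean log2 ratio -1.82 ± 0.06, SD, n = 2), the closest match between repeats among the 4 genes. With 1 array left out and no replicate block, the log2 fold change ran from -2.35 to -1.29, as the level itself rose from repeat 1 to repeat 2. It was -1.29 without the mutant of repeat 1 and -1.33 without the wild type of repeat 2.

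KMD3, from the same small family, had a signal of 292 in the mutant against 893 in the wild type in repeat 1, and of 309 against 1196.5 in repeat 2. The mutant was lower by 3.06-fold and 3.87-fold (-1.78 ± 0.24). The mutant arrays lay close together, and both lay well below the wild-type arrays.

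TZF1 had a signal of 655 in the mutant against 3075 in the wild type in repeat 1, and of 795 against 2058 in repeat 2. The mutant was lower by 4.69-fold and 2.59-fold (-1.80 ± 0.61). Here repeat 1 gave the larger difference, whereas for BT2 it was repeat 2, and no test of the difference between repeats was possible with 1 array for each genotype and repeat. The genotypes did not overlap for KMD1, KMD3 and TZF1, which makes 3 of the 4 genes. Over all tested probe sets, 23.9% were lower without overlap and 28.4% were higher without overlap. Nothing is read from this count either, because the genes were chosen as lower in the mutant.

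**Figure D1:**
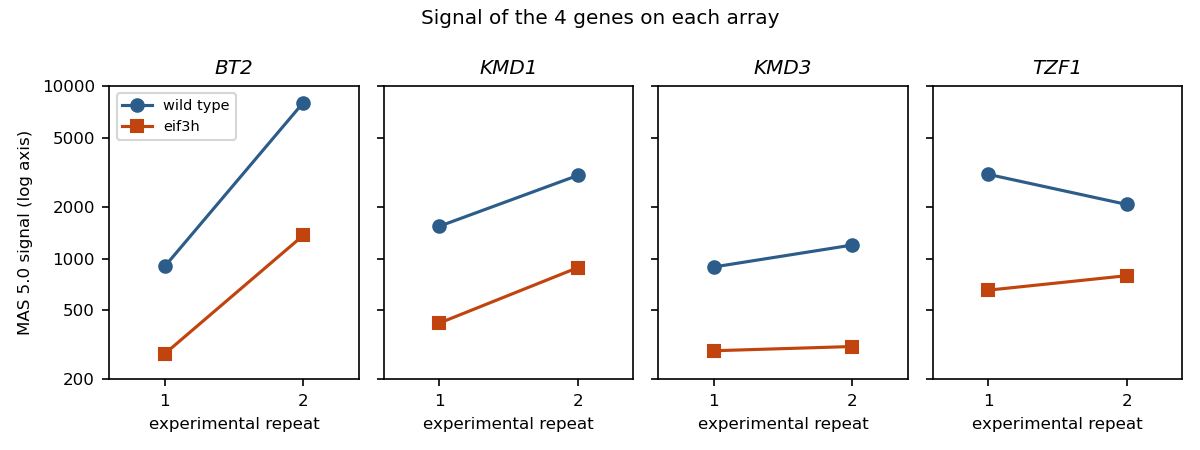
MAS 5.0 signal (log axis) of BT2, KMD1, KMD3 and TZF1 on each array, against the experimental repeat, with circles for the wild type and squares for eif3h and 1 point per array. The mutant lies below the wild type in each repeat, and BT2 climbs from 899 to 7999.9 in the wild type between the repeats.

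All tested probe sets were ordered from the lowest log2 fold change upwards. BT2 stood at place 46, KMD1 at 76, TZF1 at 80 and KMD3 at 84. All of them are thus in the lowest 1%, which is a description, as the genes were chosen on this contrast. KMD1, KMD3 and TZF1 differed by 0.04 or less in their mean log2 ratio, which is below the SD of each of them, so these 3 have no order among themselves. BT2 lay 0.30 below KMD1, which is also less than its own SD of 0.62.

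The 4 genes also differed in how they changed from repeat to repeat, a contrast that was not used to choose them. Their likeness in the genotype change cannot be set apart from that choice, so the spreads of the 2 changes are not compared. BT2 was 4.85-fold higher in repeat 2 than in repeat 1 in the mutant and 8.90-fold higher in the wild type. Its log2 change, averaged over the genotypes, was 2.72 (standard error 0.23, adjusted p = 0.00543 from limma), the 5th highest of all tested probe sets. Whether BT2 changed more between the repeats or between the genotypes is not settled. The mean sizes of the 2 changes differed by less than the SD of 0.62, which itself rests on 2 repeats.

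KMD1 was 2.1-fold higher in repeat 2 in the mutant and 1.97-fold higher in the wild type, and its change also passed limma's test (log2 change 1.02, standard error 0.17, adjusted p = 0.0328). KMD3 was 1.06-fold and 1.34-fold higher, with a log2 change of 0.25 (standard error 0.18) that did not pass (adjusted p = 0.445 from limma). TZF1 was 1.21-fold higher in repeat 2 in the mutant and 1.49-fold lower in the wild type (log2 change -0.15, standard error 0.23, adjusted p = 0.733 from limma). So 2 of the 4 genes were called higher in repeat 2, against 1.02% of all tested probe sets called higher in it and 1.45% called lower. BT2, KMD1 and KMD3 were higher in it in both genotypes, as were 33.7% of all tested probe sets.

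The calls on the repeat did not hold under every setting. Over all probe sets without a filter neither gene passed limma's test (adjusted p = 0.398 for both), and under quantile normalization KMD1 did not (adjusted p = 0.0586) while BT2 did (log2 change 2.74). Over the alternatives the adjusted p of limma ran from 0.000206 to 0.398 for BT2 and from 0.00861 to 0.398 for KMD1. The repeats differ in day of RNA preparation, day of scanning and scanner at once, and these cannot be told apart. The highest signal on an array was 37509 and 43564 in repeat 1 and 86884 and 102340 in repeat 2, and RCA was also called higher in repeat 2 (log2 change 0.89, adjusted p = 0.0452 from limma). Their part in the changes of BT2 and KMD1 was not tested.

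**Figure D2:**
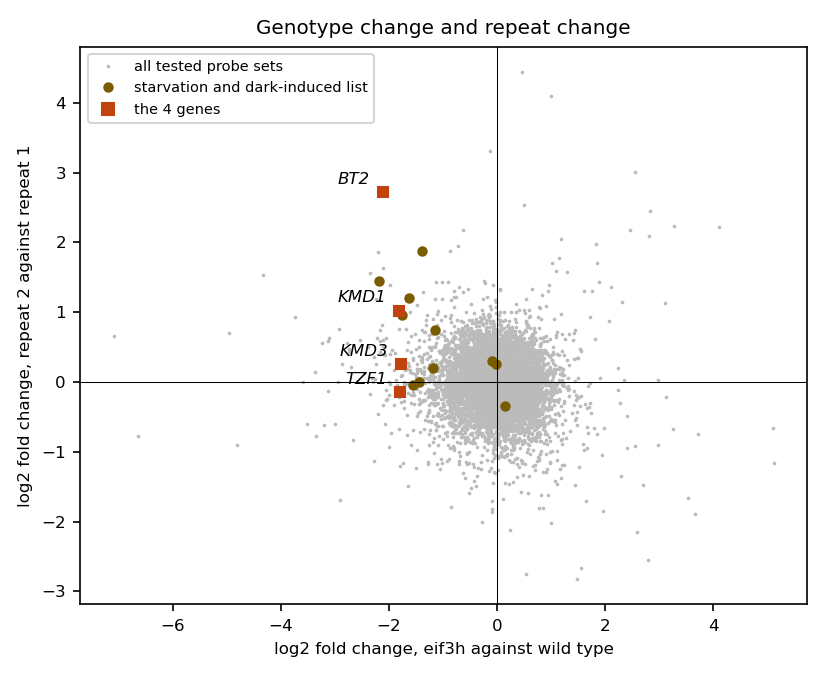
Log2 fold change of repeat 2 against repeat 1 (vertical) against that of eif3h against wild type (horizontal), both from limma, for all tested probe sets (grey points), the tested genes of the starvation and dark-induced list (circles) and the 4 genes (squares). The 4 genes lie at -2.12 to -1.78 along the genotype axis, on which they were chosen, and at -0.15 to 2.72 along the repeat axis, on which they were not.

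A list of 36 other genes known to be induced by starvation or darkness was set beside the 4. Of these, 14 had a named probe set, 11 of the 14 were tested, and 8 of the 11 were called lower in the mutant and 0 higher, against 9.68% lower and 8.49% higher over all tested probe sets. The median log2 fold change of the 11 was -1.38. These counts are not independent of the choice of genes, since 8 of the 14 could be named only through the study's lists of changed genes. The 6 that the array annotation names are the ones not selected in this way. Of these, 4 were tested, 1 was called lower, 3 were not called, and their median was -0.05.

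The gene called lower among these was At3g15450, with signals of 587.5 and 1968 in the mutant and 3301 and 7287 in the wild type. All its mutant signals lay below its wild-type signals (log2 fold change -2.19, standard error 0.20, adjusted p = 0.00121 from limma), and it too stands in the study's list. The others are genes of leucine breakdown and its electron transfer. MCCA and MCCB, the subunits of methylcrotonyl-CoA carboxylase, had log2 fold changes of -0.01 and 0.15, and ETFQO, which passes electrons from such oxidations to ubiquinone, had -0.10. IVD, isovaleryl-CoA dehydrogenase, was below the tested range, with signals of 232 and 299 in the mutant and 259 and 340.3 in the wild type. ATL8, a RING finger protein, was also below it, with 121.5 and 208.5 in the mutant and 193.5 and 185 in the wild type. The signals of MCCA, MCCB, ETFQO, IVD and ATL8 overlapped between the genotypes.

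The 8 genes named only through the study's lists supply the other 7 of the 8 calls. These calls are no test of them, because the lists hold genes selected as changed in transcript level, on these arrays, or in translation. Their ratios are given as values. SEN1 (DIN1), a senescence and darkness marker, had a log2 ratio of -1.16 ± 0.14 (SD, n = 2 repeats), and DIN10, a raffinose synthase homolog, had -1.38 ± 0.06. BAM9 (At5g18670), a member of the beta-amylase family, had -1.63 ± 0.26, and RZPF34 (At5g22920), a RING zinc finger protein, had -1.75 ± 0.47. bZIP1, a transcription factor of the low-energy response, had -1.18 ± 0.31. The class II trehalose phosphate synthase genes TPS8, TPS9 and TPS11 had -1.45 ± 1.16, -1.56 ± 0.20 and -1.56 ± 0.09, and TPS9 was below the tested range. For TPS8 the log2 ratio was -2.27 in repeat 1 and -0.63 in repeat 2. The mean log2 ratios of these 8 genes were less negative than those of the 4 genes, although for RZPF34, BAM9 and TPS8 the gap to KMD3 was smaller than their own SD.

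The count of 8 calls in this list depended on the fit. It was 1 without the replicate block, 0 to 3 with 1 array left out (0 without the mutant of repeat 1), and 0 over all probe sets without a filter, where limma called 0 of all probe sets lower (1414 had an unadjusted p under 0.05). At3g15450 was not called without the replicate block (adjusted p = 0.145 from limma), and with 1 array left out it was called when that was the mutant of repeat 2.

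**Figure D3:**
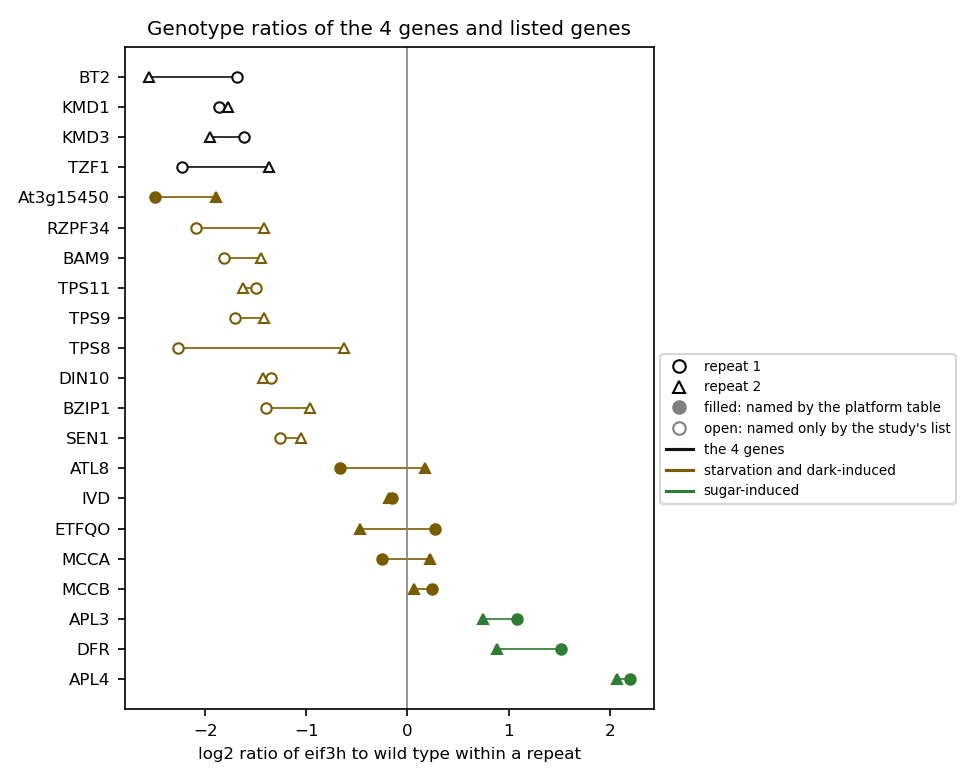
Log2 ratio of eif3h to wild type within repeat 1 (circles) and repeat 2 (triangles) for the 4 genes, the 14 named genes of the starvation and dark-induced list and the 3 named genes of the sugar-induced list, where filled marks are named by the array annotation and open marks only by the study's lists of changed genes. All open marks lie below 0, and of the filled marks At3g15450 lies lowest and APL4 highest.

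Several of the listed genes also resembled BT2 and KMD1 in being higher in repeat 2. Of the 11 tested, 3 were called higher in repeat 2 and 0 lower by limma, against 1.02% higher and 1.45% lower over all tested probe sets, with a median log2 change of 0.31 against 0.0043 over all tested probe sets. They are DIN10, 3.56-fold higher in the mutant and 3.76-fold in the wild type (adjusted p = 0.00557 from limma), At3g15450, 3.35-fold and 2.21-fold (adjusted p = 0.0225), and BAM9, 2.61-fold and 2.02-fold (adjusted p = 0.026). At3g15450 was the 1 called among the 4 tested genes that the array annotation names. DIN10 and BAM9 were named only through the study's lists. TPS8 and TPS11, with log2 changes of -0.0041 and -0.05, did not pass, as was the case for KMD3 and TZF1. These counts on the repeats were made after the values of BT2 had been seen.

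Genes that sugar is known to induce lay on the other side, as far as they could be read. Of 10 listed, 3 had a named probe set, all through the array annotation, and both of the tested ones were called higher in the mutant, against 8.49% of all tested probe sets. APL3 would not have reached the tested group on its wild-type signals alone. The filter thus favoured a higher call for it, and nothing is read from this count. Neither APL3 nor DFR stands in the study's lists of changed genes, whereas APL4, the untested one, does. APL3, a large subunit of ADP-glucose pyrophosphorylase in starch synthesis, had signals of 807 and 303.5 in the mutant and 382 and 180.3 in the wild type. It was higher in the mutant within each repeat but not across repeats (log2 fold change 0.92, standard error 0.18, adjusted p = 0.0169 from limma). DFR, an enzyme of anthocyanin synthesis, had 1571 and 712 in the mutant and 548 and 386 in the wild type (adjusted p = 0.0104 from limma). APL4, another large subunit of the same enzyme, was below the tested range, with 667 and 355 in the mutant and 146 and 84.3 in the wild type, which is 4.58-fold and 4.21-fold higher. APL3 was called lower in repeat 2 (log2 change -1.25, adjusted p = 0.0229 from limma), the direction opposite to that of BT2 and KMD1. Neither APL3 nor DFR was called as higher in the mutant without the replicate block (adjusted p = 0.386 and 0.187 from limma) or with any of the 4 arrays left out.

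Of the SnRK1 kinase itself, 3 of 8 listed genes were named by the array annotation, and all of these encode regulatory beta subunits. KINBETA1 (At5g21170), itself known as dark-induced, had signals of 360 and 412 in the mutant against 1169 and 1012 in the wild type and was called lower (log2 fold change -1.50, standard error 0.19, adjusted p = 0.00346 from limma). It also stands in the study's list of changed genes. KINBETA2, with 0.40, and KINBETA3, with 0.16, did not pass. Over all tested probe sets 9.68% were called lower and 8.49% higher, and nothing is read from 1 call among 3 genes. GRIK2, a kinase that activates SnRK1, was named only through the study's lists and had -0.45. The catalytic subunits KIN10 and KIN11 had no named probe set here.

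Among 9 bZIP factors of groups C and S1, several of which act under SnRK1, bZIP1 (-1.18) and bZIP9 (-1.25, on a probe set that may detect related genes) had negative log2 fold changes and bZIP11 (1.03) a positive one, and these 3 are given as values because they were named only through the study's lists. Of the 2 that the array annotation names, bZIP44 was called higher (log2 fold change 0.77, adjusted p = 0.0266 from limma), and bZIP53, with -0.10, was not called. The 9 ATG8 genes of autophagy, another process induced by starvation, all had a probe set named by the array annotation. Of the 8 tested, 2 were called higher, 1 lower and 5 neither, against 8.49% higher and 9.68% lower over all tested probe sets, with a median log2 fold change of 0.10. With 8 genes, 1 lower call is near that share, and 2 higher calls are too few to be read as a result. The higher ones were ATG8D (1.05) and ATG8B (0.86). ATG8B too entered the tested group through the mutant alone, with wild-type signals of 273.5 and 229.3. The lower one was ATG8E (-0.91, with a log2 ratio of -1.43 in repeat 1 and -0.40 in repeat 2).

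Few relatives, partners and targets of the 4 genes could be read. The other 4 BT genes, KMD2 and KMD4, and 9 of the 11 listed TZF genes had no named probe set here. At5g12850, a TZF relative, had signals of 851 and 919 in the mutant and 803 and 952 in the wild type (log2 fold change 0.02, adjusted p = 0.956 from limma). Of 8 partners and targets of BT2, the telomerase gene TERT and its activator TAC1, which acts through BT2, were named. Both were below the tested range, at 41.1 to 82.8 for TERT and 4.1 to 8.2 for TAC1, and overlapped between the genotypes. Of 7 type-B response regulators, which KMD proteins are known to target as a class, ARR18 was named, also below the tested range, with 37.6 and 64.7 in the mutant and 78.7 and 111 in the wild type. Of 10 type-A response regulators, which are induced by cytokinin, ARR15 had 69.6 and 199 in the mutant and 82.8 and 57.9 in the wild type. ARR16 had 84.7 and 166 in the mutant and 200 and 120 in the wild type. Both ARR15 and ARR16 were below the tested range, with log2 ratios of opposite sign in the 2 repeats.

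The patterns most like those of the 4 genes were looked for among 4758 tested probe sets with a single named locus, as the Euclidean distance between log2 signals centred on their mean over the 4 arrays. As the 4 genes were chosen on these arrays, this is a description. KMD1 lay closest to the mean pattern of the 4 genes (distance 0.12), followed by KMD3 (0.73), TZF1 (1.21) and BT2 (1.82). BT2 and TZF1 were farthest from each other (3.01), and KMD3 and TZF1 closest (0.72), so these 4 genes do not form a single pattern over the arrays.

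Nearest to the mean pattern was ABC4 (At1g60600, distance 0.28), an enzyme of phylloquinone synthesis in the chloroplast, with signals of 235 and 449 in the mutant and 928 and 1409 in the wild type. It was followed by RZPF34 (0.39) and BAM9 (0.41), both of the starvation list, and by At1g68440 (0.43), At4g20480 (0.43) and PATL2 (0.45), a patellin. RP1 (At1g43170, 0.48), an L3 protein of the cytosolic ribosome, At2g20670 (0.53), At4g31530 (0.54) and At5g25280 (0.58) completed the nearest 10. Of the 10, 6 stand in the study's lists of changed genes and 5 are named by the array annotation. Among the 4758 probe sets compared, 301 were named only through these lists. Nothing is read from these counts, as the pattern itself comes from genes chosen as lower in the mutant.

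The 3 nearest to each gene differed between the 4. For BT2 they were the nematode-resistance homolog HSPRO2 (1.14), the glycine-rich protein gene At2g05540 (1.18) and DIN10 (1.19), each farther away than any of the neighbours given for the other 3 genes. The nearest to KMD1 were ABC4 (0.28), BAM9 (0.30) and RZPF34 (0.31). Those of KMD3 were At1g64500 (0.16), a pyruvate dehydrogenase E1 alpha gene (0.24) and OHP2 (0.25), a one-helix protein of the thylakoid. Those of TZF1 were DER2.1 (0.0998), a derlin of the endoplasmic reticulum, At5g02160 (0.14) and At1g69160 (0.16). DER2.1 had signals of 262 and 323 in the mutant and 1271 and 901 in the wild type, and so, as TZF1 did, fell between the repeats in the wild type and not in the mutant.

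**Figure D4:**
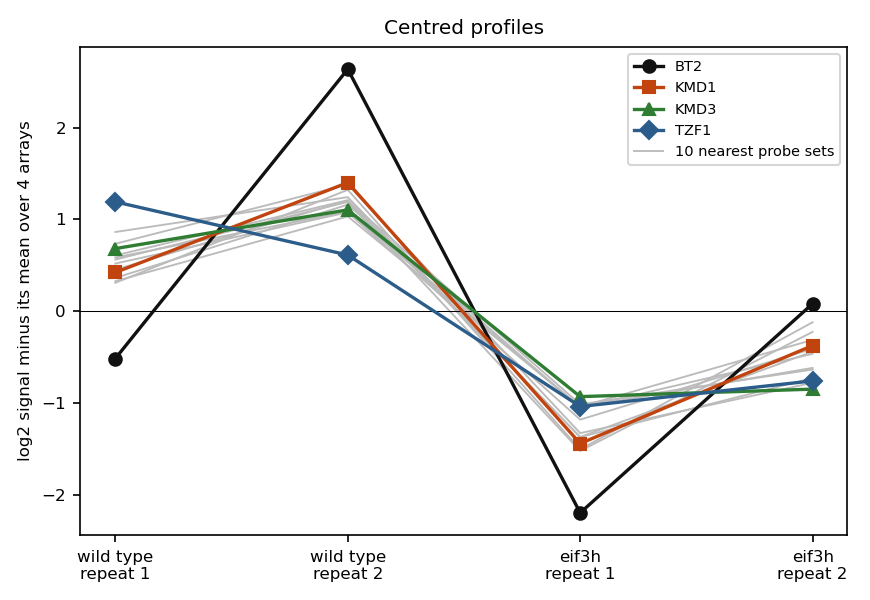
Log2 signal minus its mean over the 4 arrays (vertical) on each array (horizontal) for BT2, KMD1, KMD3 and TZF1 (coloured lines with marks) and the 10 probe sets nearest to their mean pattern (grey lines). KMD1 runs with the grey lines at a distance of 0.12 from the mean pattern, while BT2, at 1.82, swings most widely and TZF1, at 1.21, falls in the wild type between the repeats.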

How the data were processed

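Transcript levels were measured on 4 Affymetrix ATH1 arrays, 2 for each genotype, grouped by the sample labels. Each deposited intensity is a linear MAS 5.0 signal, scaled by the authors (trimmed mean 500.0 on every array, with 2% trimmed at each end). The deposited table has no detection calls, so testing was limited to the 8831 probe sets of highest mean log2 signal, the number that the study's own filter left. The fit used limma 3.58.1 (R 4.3.3), with terms for repeat and genotype and Benjamini-Hochberg adjustment over all 8831, and was first tested on simulated data. The repeat numbers pair the samples because both arrays of a repeat were scanned on the same day, and the study's ratios are taken within a repeat. The repeat changes of the genotypes had a correlation of 0.530 across probe sets.

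Names came from the platform annotation, by Entrez gene, for 13484 probe sets with 1 locus, and 364 more only through the study's lists of changed genes. The 4 genes, the gene lists and the tests were chosen with earlier results of these data known. Named in the text are the 4 genes, list members taken by size of change or list order, all members of the family and partner lists that could be named, and the genes of nearest pattern. Uncalled genes of the SnRK1 and bZIP lists were named after their values were seen. The number of arrays limits the precision. In the main fit, p-values for the genotype rest on how far its difference varied between the 2 repeats. Those for the repeat rest on how far its change varied between the 2 genotypes, so they measure no spread between preparations within a repeat. In both, limma moderates this spread with that of all tested probe sets (6.58 prior degrees of freedom). Alternatives were no replicate block, quantile normalization, median centring, no filter, a filter to the 5000 brightest probe sets, log2 of the signal plus 50, a variance trend with intensity, no probe sets open to cross-hybridization, and the removal of each array in turn. Promoter and protein comparisons that had been planned were not run, as no sequences were used here. Python 3.11.15, numpy 2.4.6, pandas 2.3.3 and matplotlib 3.10.9 made the summaries and plots.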

Additional observations from a re-analysis of the deposited data

How the results depend on the processing

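The 4 genes were lower in the eif3h mutant under all alternatives that were run. With 1 array left out and no replicate block, the log2 fold change ran from -3.70 to -0.54 for BT2, from -2.35 to -1.29 for KMD1, from -1.99 to -1.57 for KMD3 and from -2.09 to -1.51 for TZF1. Under the other alternatives it stayed within the SD of the repeats, except for KMD1 with an offset of 50 (-1.73). KMD3 was not among the 5000 brightest probe sets.

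Without the replicate block limma called 67 of all tested probe sets lower and 14 higher, 1 of the starvation and dark-induced list lower and 0 of the sugar-induced list higher. Over all probe sets it called 0 lower and 0 higher (1414 and 1269 at an unadjusted p under 0.05), and thus 0 of either list. Here more probe sets with low signals enter the fit. Among the 5000 brightest, where APL3 is left out, 1 of the sugar-induced list was higher. With 1 array left out, 42 to 139 of all tested probe sets were lower and 15 to 44 higher, 0 to 3 of the starvation list were lower and 0 to 0 of the sugar-induced list higher. The change of BT2 from repeat 1 to repeat 2 lost its call over all probe sets (log2 change 2.72), and that of KMD1 lost it over all probe sets (1.02) and under quantile normalization (1.05). The causes were not tested. Detection calls were not used, so low signals could not be judged against background.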
